A study of Mus musculus with 9 samples.

Results

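The genes described here serve kidney cells that live in, and build, the salty tissue of the renal medulla. They are Nfat5, Akr1b3, Slc5a3, Slc6a6, Slc6a12, Slc14a2, Aqp1, Gpx2 and Sgk1, 9 symbols chosen by name and looked up in a table of 13081 genes, which listed 7 of them. Slc6a12 and Gpx2 were not among the listed genes and have no value here. Kidney RNA came from wild-type mice, sampled at 3 months (young, 4 libraries) and at 16 months (old, 5 libraries). No treatment other than age distinguished the groups, and the labels give neither sex nor strain. Libraries were made by priming from the poly(A) tail and reading transcript ends, and values are normalized counts, that is, the reads of a gene after division by the size factor of its library. The libraries held 4486406 to 6355095 reads over the listed genes. The sample titles carry 1 prefix in young mice and another in old mice, so age cannot be told apart from anything else that followed the prefix.

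The kidney concentrates urine by pumping salt into the medulla and trapping urea there, which leaves its cells bathed in fluid of high osmolality. NFAT5, also called TonEBP, is the transcription factor that answers this stress. It drives genes that load cells with compatible organic osmolytes: the myo-inositol carrier SMIT1 (Slc5a3), the taurine carrier TauT (Slc6a6), the betaine carrier BGT1 (Slc6a12) and aldose reductase (Akr1b3), which makes sorbitol from glucose. The urea channel UT-A (Slc14a2) and the water channel AQP1 (Aqp1) move urea and water through medullary segments, AQP1 being abundant in the proximal tubule as well. SGK1 (Sgk1) is a kinase induced by corticosteroids and by cell shrinkage that increases sodium transport, and GPX2 (Gpx2) is a glutathione peroxidase of epithelia.

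All libraries held the kidney markers they should, with 8 of 8 proximal tubule markers above 0 in each, but they differed in medullary markers in ways the ages do not account for. The markers of principal cells (7 of 7 listed in the table) summed to 2346 to 3041 normalized counts in young kidneys, to 1234 to 1755 in 4 of the old ones and to 3768 in old replicate 3. Those of the inner medullary collecting duct (6 of 6) summed to 348 to 426, to 246 to 306, and to 870.1 in old replicate 3. Those of the thin limb (6 of 7) summed to 759 to 1066, to 309.8 to 514, and to 1073 in old replicate 3, where Fst was at 0. Of 17 such markers besides the members, 14 were highest among the old libraries in old replicate 3. The urothelial markers Upk3a and Psca, the only 2 of 7 listed in the table, summed to 475 there and to at most 62.2 in any other library. Adipocyte markers (4 of 5) summed to 1033 in old replicate 3 and to 1427 in young replicate 2, against 56.0 to 465 in the others.

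In old kidneys 4 of the 7 measured members were higher and 0 were lower, at an adjusted p under 0.05 in limma across 12667 genes. These were Nfat5, Slc5a3, Aqp1 and Sgk1, with no overlap between the age groups. Slc6a6, Akr1b3 and Slc14a2 had negative fold changes that did not pass. Over all genes tested, 59.7% were called, 29.2% higher and 30.5% lower, and 49.0% had age groups that did not overlap, so the share of members called (57.1%) was close to the background of this comparison. On the log2 scale the members had a median difference of 0.34 and all genes tested one of -0.00. The rises of Nfat5 and Slc5a3, whose transcripts are the longest of the set, were no longer called once a trend with transcript length was removed. Those of Sgk1 and Aqp1 were called under each of 21 alternatives.

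**Figure D1:**
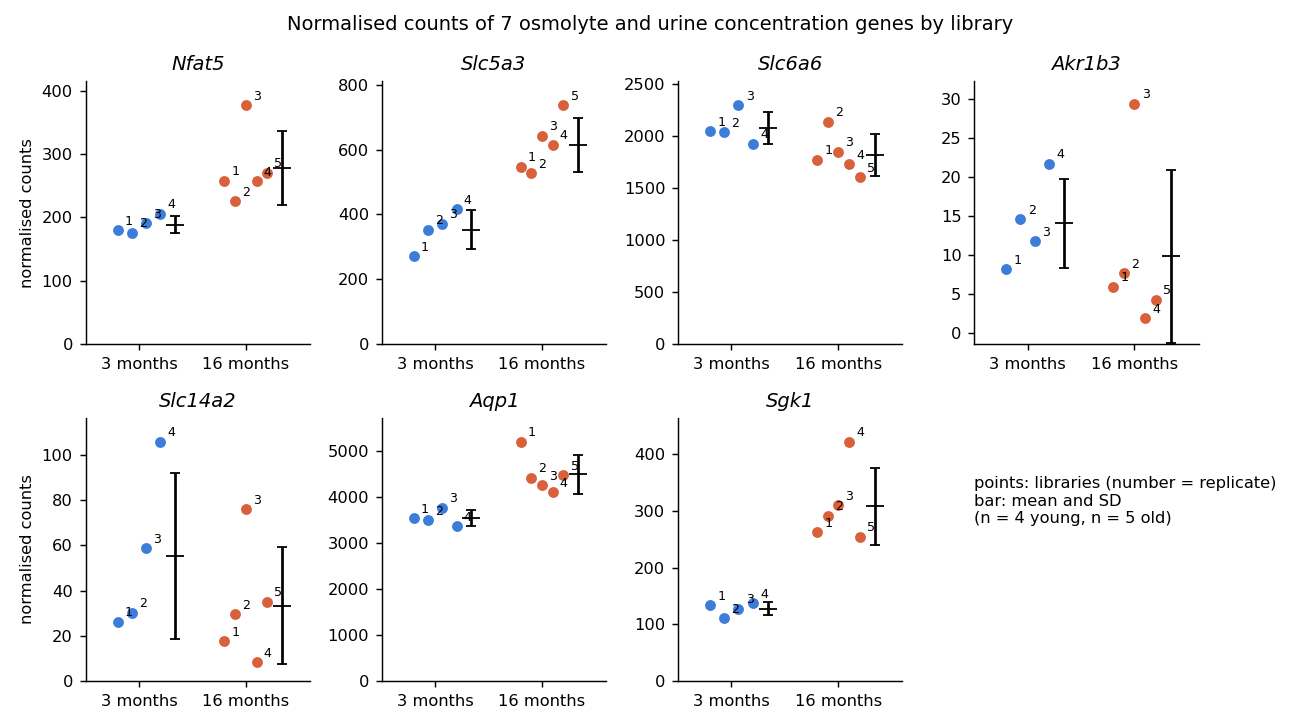
Normalized counts (vertical axis, from 0 except where a bar reaches below it) of the 7 members in each library of 3 and 16 months (horizontal axis), with the mean and SD beside the points. All 5 old libraries lie above all 4 young ones for Nfat5, Slc5a3, Aqp1 and Sgk1, whereas the groups overlap for Slc6a6, Akr1b3 and Slc14a2.

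The upstream sequences of the 4 genes that were higher in old kidneys are shown to let the reader see what their start regions hold. They are from RefSeq windows on GRCm38.p6, all on the plus strand, and run 5′ to 3′ up to the base before the start site, and for Slc5a3 only up to the base before the start of Mrps6, an overlapping gene, which leaves out the 52 bases next to the Slc5a3 start. Capitals mark GGGCGG (the GC box bound by Sp1 family factors) on either strand and TATAAA, a core promoter element bound by TBP. Nfat5 is from chr8:107293220-107293469, Slc5a3 from chr16:92058072-92058269, Aqp1 from chr6:55336049-55336298 and Sgk1 from chr10:21994416-21994665, the last of its 6 start sites.
Nfat5: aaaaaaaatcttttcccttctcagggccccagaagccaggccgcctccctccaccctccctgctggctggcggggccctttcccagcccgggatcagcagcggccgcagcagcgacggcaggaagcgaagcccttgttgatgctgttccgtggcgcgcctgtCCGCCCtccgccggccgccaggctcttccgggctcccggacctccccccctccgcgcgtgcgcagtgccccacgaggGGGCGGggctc
Slc5a3: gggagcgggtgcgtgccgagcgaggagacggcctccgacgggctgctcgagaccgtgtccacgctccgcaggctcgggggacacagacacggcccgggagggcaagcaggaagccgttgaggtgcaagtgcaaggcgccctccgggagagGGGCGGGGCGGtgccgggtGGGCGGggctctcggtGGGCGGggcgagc
Aqp1: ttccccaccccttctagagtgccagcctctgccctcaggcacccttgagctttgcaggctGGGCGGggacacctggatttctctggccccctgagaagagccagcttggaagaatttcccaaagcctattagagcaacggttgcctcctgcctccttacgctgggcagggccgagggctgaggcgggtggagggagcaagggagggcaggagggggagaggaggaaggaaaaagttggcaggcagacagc
Sgk1: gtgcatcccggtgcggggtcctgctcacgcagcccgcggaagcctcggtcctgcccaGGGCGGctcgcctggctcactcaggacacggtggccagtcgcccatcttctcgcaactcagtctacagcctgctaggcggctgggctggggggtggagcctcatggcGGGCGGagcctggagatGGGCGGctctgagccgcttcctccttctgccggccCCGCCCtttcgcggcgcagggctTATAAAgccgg

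NFAT5 binds a site whose core is TGGAAA, within the longer tonicity-responsive element (TonE). Windows of 300 bases, 250 before and 50 after the start, were searched for 6 of the 9 members, 15 windows in all. Akr1b3, Slc6a6 and Slc14a2 were not searched. TGGAAA was found on either strand in 4 of the 15, and in 21.4% of the 32851 windows of all genes. The longer element occurred in 1 of them, a start site of Slc6a12, against 4.96% of all windows. That match is shown because it is the only full element in the windows searched. It lies at chr6:121342489-121342519 on the plus strand, with the element in capitals.
Slc6a12: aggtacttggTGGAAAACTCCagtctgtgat

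None of the windows of Nfat5, Slc5a3 and Aqp1 held TGGAAA. Of the 6 windows of Sgk1, 2 did, at other start sites than the one printed. The window of the last Sgk1 start held 4 copies of GGGCGG and 1 TATAAA, that of Slc5a3 4 copies of GGGCGG, that of Nfat5 2 and that of Aqp1 1. GGGCGG was present in 35.7% and TATAAA in 13.6% of all windows. A match describes letters only, and sites farther from the start were not searched.

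The regulator itself came first. Nfat5 (chr8:107293470-107379517, GRCm38) had 180.2, 176, 191 and 206 normalized counts in young kidneys and 258, 225, 377, 257 and 271 in old ones. Every old library was above every young one, and old replicate 3 stood above the other old libraries. The means were 188 ± 13.2 (SD, n = 4) and 278 ± 58.1 (SD, n = 5). The limma fit, on the log2 scale, gave a 1.45-fold rise (log2 fold change 0.54, SE 0.13, limma adjusted p = 0.00187). Without old replicate 3 the log2 fold change was 0.42, with an adjusted p of 0.00407. With the transcript length trend removed, it was -0.11 with an adjusted p of 0.457, so neither the direction nor the call held.

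The likeness of other genes to Nfat5 was described by Pearson's r of their deviations from the age means (log2 scale) over the 9 libraries. Of 5654 other genes with a mean of at least 100 normalized counts, Gstm2 (r = 0.98), Pygl (0.97) and Acly (0.96) came closest. These are a glutathione transferase, the liver form of glycogen phosphorylase and ATP citrate lyase. Without old replicate 3, over 8 libraries, the values were 0.89, 0.89 and 0.77. The points share size factors and libraries, and the 3 genes were picked for the highest r of all.

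Among the carriers, Slc5a3 rose. It had 272, 353, 372 and 416 normalized counts in young and 547, 526, 642, 615 and 737 in old kidneys. The lowest old library was above the highest young one. The means of 353 ± 60.4 (SD, n = 4) and 613 ± 84.0 (SD, n = 5) gave a 1.74-fold rise (log2 fold change 0.80, SE 0.13, limma adjusted p = 2.38e-05). With the length trend removed it was 0.24, with an adjusted p of 0.0853.

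Slc5a3 (chr16:92058322-92087473) lies within Mrps6, a mitochondrial ribosomal protein gene on the same strand whose annotated start is 52 bases upstream. Mrps6 had 442, 545, 559.8 and 626 normalized counts in young and 447, 428, 441, 386 and 363 in old kidneys. It moved the other way (log2 fold change -0.39, SE 0.11, limma adjusted p = 0.00547), although 1 young library lay within the range of the old ones. The exons of the 2 genes overlap near the start, and 1.01% of the 50-base words of Slc5a3 occur in another gene, with 0% in the last 500 bases, where these libraries read. Mrps6 was named after its values were seen.

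The taurine carrier Slc6a6 (chr6:91684053-91759066) did not pass. Its young values were 2048, 2041, 2301 and 1929 normalized counts and its old values 1776, 2139.6, 1851, 1733 and 1604. Old replicate 2 lay among the young libraries and the other 4 old libraries below them all. The log2 fold change was -0.20 (SE 0.10, limma adjusted p = 0.0898), from a mean of 2080.0 ± 157 (SD, n = 4) to 1821 ± 199.5 (SD, n = 5). It was called lower without old replicate 2 (-0.26, adjusted p = 0.0198), on counts scaled to the table total (-0.25, adjusted p = 0.0406) and with the length trend removed (-0.47, adjusted p = 0.000493). With mitochondrial genes left out it was -0.05 (adjusted p = 0.663), and without young replicate 3 it was -0.15 (adjusted p = 0.267). Neither edgeR (adjusted p = 0.121) nor DESeq2 (adjusted p = 0.0952) called it.

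Aldose reductase, Akr1b3 (chr6:34302434-34317478), was near the limit of detection. Its values were 8.19, 14.6, 11.8 and 21.7 normalized counts in young and 5.89, 7.66, 29.4, 1.87 and 4.24 in old kidneys. Old replicate 3 was the highest of all 9 libraries, whereas the other 4 old libraries were below every young one. The value in old replicate 4 stood for 2 reads, under the floor of 3 reads. The log2 fold change was -0.89 (SE 0.53, limma adjusted p = 0.156), and -1.38 with an adjusted p of 0.0131 without old replicate 3. It was smaller without old replicate 4 (-0.53, adjusted p = 0.367), in edgeR (-0.50, adjusted p = 0.433), in DESeq2 (-0.51, adjusted p = 0.463) and with a pseudocount of 5 (-0.57, adjusted p = 0.190). Of the 50-base words in its longest coding transcript, 59.9% also occur in 4 other annotated genes (13.5% in the last 500 bases), so reads may have been split or discarded, and the level of Akr1b3 is uncertain.

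The urea channel gene Slc14a2 varied widely within each age. It had 26.2, 30.1, 58.8 and 106 normalized counts in young kidneys and 17.7, 29.5, 76.1, 8.40 and 35.01 in old ones. The groups overlapped over most of their range, with a log2 fold change of -0.83 (SE 0.47, limma adjusted p = 0.135). Without old replicate 3 it was -1.20 with an adjusted p of 0.0197, whereas it was -0.44 without young replicate 4 (adjusted p = 0.447) and -0.44 without old replicate 4 (adjusted p = 0.372). Without young replicate 4 and old replicates 3 and 4 together, a choice made after the data were seen, it was -0.43 with an adjusted p of 0.306.

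Aqp1 (chr6:55336432-55348555) had 3545, 3495, 3774 and 3372 normalized counts in young and 5209, 4428, 4262, 4109.9 and 4481 in old kidneys. The lowest old library exceeded the highest young one. The rise was small, from a mean of 3547 ± 168 (SD, n = 4) to 4498 ± 423 (SD, n = 5). The limma fit, on the log2 scale, gave a 1.26-fold difference (log2 fold change 0.34, SE 0.09, limma adjusted p = 0.00425). Over its alternatives the log2 fold change was 0.29 to 0.51, with adjusted p-values of 0.000103 to 0.0158.

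Sgk1 (chr10:21882184-21999903) had the largest log2 fold change of the 7 with all libraries in the fit (without old replicate 3, Akr1b3 at -1.38 was larger in size than Sgk1 at 1.24). Its young values were 133, 111, 127 and 138 normalized counts, and its old values 263, 292, 310.3, 423 and 255. Old replicate 4 was the highest, and even the lowest old library was well above the young range. The means were 127 ± 11.8 (SD, n = 4) and 308 ± 67.6 (SD, n = 5). The limma fit, on the log2 scale, gave a 2.38-fold rise (log2 fold change 1.25, SE 0.14, limma adjusted p = 4.32e-07). Over its alternatives the log2 fold change was 1.12 to 1.39, with a highest adjusted p of 1.86e-05.

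**Figure D2:**
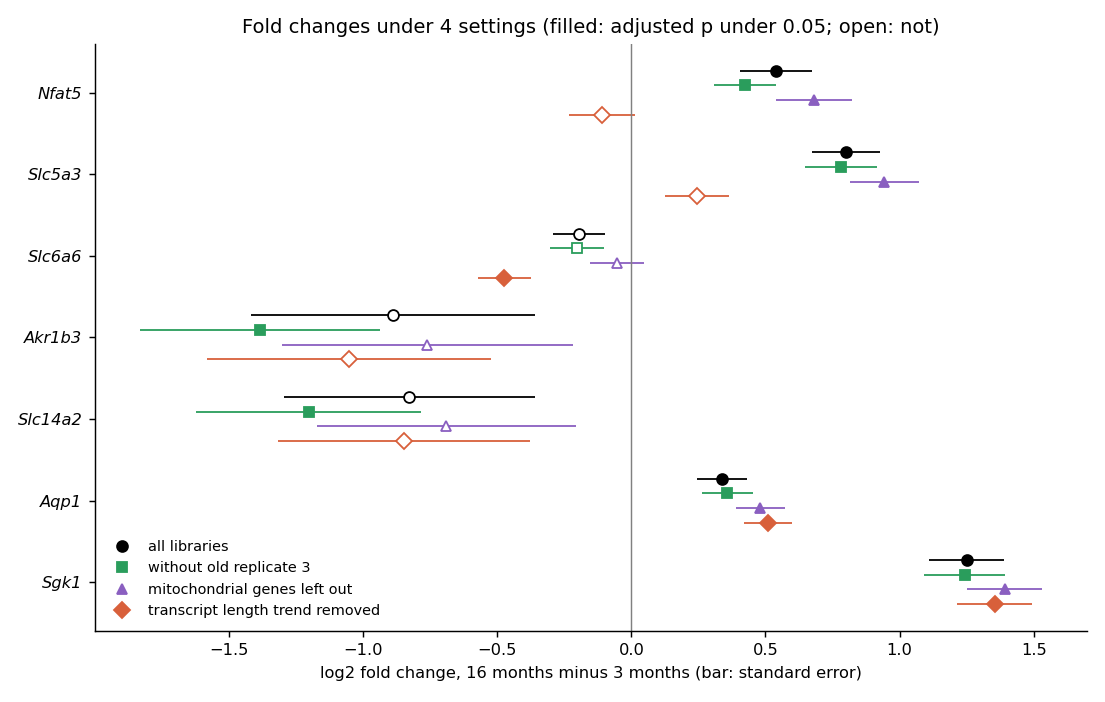
Log2 fold change of each member, old minus young (horizontal axis, bars give the standard error), in all libraries and under 3 alternatives, with filled symbols for an adjusted p under 0.05. Sgk1 and Aqp1 stay filled and positive in all 4, Nfat5 and Slc5a3 lose the call with the length trend removed, and Akr1b3 and Slc14a2 gain it without old replicate 3.

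Transcript length moved with the age difference across the whole table. The longest annotated transcript of Nfat5 has 13443 bases and that of Slc5a3 10913. Of the 313 tested genes with at least 10000 bases, 186 (59.4%) were higher in old kidneys and 28 lower, and the median of their log2 fold changes was 0.60. The value of Nfat5 (0.54) was below that median and the value of Slc5a3 (0.80) above it. Sgk1 has 3096 bases and Aqp1 2627, and the 4277 genes of 3000 to 5000 bases had a median of 0.02 and the 2570 genes of 2000 to 3000 bases a median of -0.17. The part of transcript length in the rises of Nfat5 and Slc5a3 was not tested beyond the removal of the trend.

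**Figure D3:**
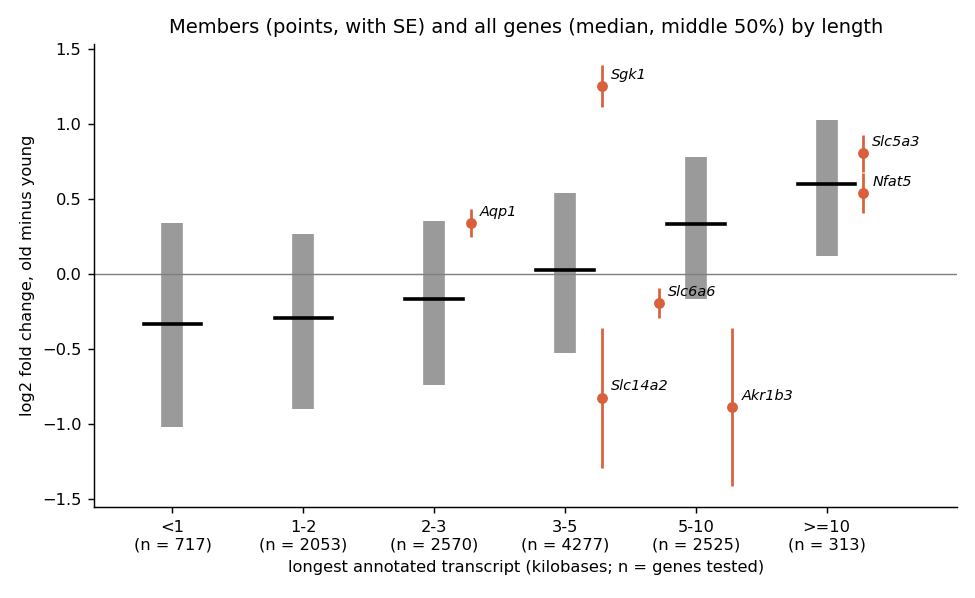
Log2 fold change, old minus young (vertical axis), against the length of the longest annotated transcript in kilobases (horizontal axis). Black lines are medians and gray bars the middle 50% of all tested genes in a length class, and red points are members with their SE. The medians rise from -0.34 under 1000 bases to 0.60 at 10000 or more, where Nfat5 and Slc5a3 lie. Akr1b3 is placed by a transcript of 5024 bases, although its longest coding transcript has 1387.

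Among the old libraries, Slc14a2, Akr1b3 and Nfat5 were each highest in old replicate 3, whereas Slc5a3 peaked in old replicate 5, Sgk1 in old replicate 4, Aqp1 in old replicate 1 and Slc6a6 in old replicate 2. Among the young libraries, Slc14a2, Akr1b3, Nfat5, Slc5a3 and Sgk1 were highest in young replicate 4, and Aqp1 and Slc6a6 in young replicate 3. Within age, over 9 libraries, Slc14a2 and Akr1b3 varied together (Pearson's r = 0.84, and 0.75 without old replicate 3). With the thin limb marker Cryab, r was 0.91 for Akr1b3, 0.70 for Slc14a2 and 0.70 for Nfat5, and without old replicate 3 it was 0.66, 0.43 and -0.51. With Aqp2, r was 0.85 for Akr1b3, 0.77 for Slc14a2 and 0.81 for Nfat5, and without old replicate 3 it was 0.43, 0.65 and 0.03. Between Nfat5 and Akr1b3 it went from 0.72 to -0.05. Over the 21 pairs of members r ranged from -0.61 to 0.84 with a median of -0.00, so the members did not vary as a unit. These are descriptions over libraries that share size factors. In kidney tissue, fewer cells of a type and less RNA per cell cannot be told apart, and the part of the medullary share in the values of the members was not tested.

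**Figure D4:**
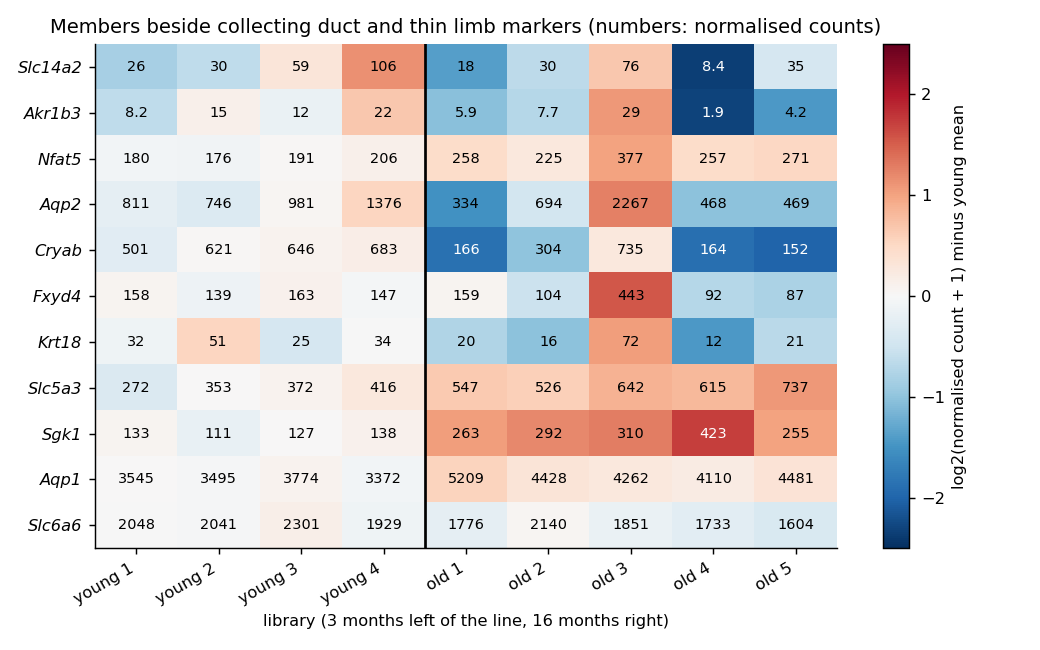
Normalized counts (numbers) of the members and of 4 collecting duct or thin limb markers (Aqp2, Cryab, Fxyd4 and Krt18) in each library (columns), with color giving the log2 difference from the young mean. Old replicate 3 is red for Slc14a2, Akr1b3 and Aqp2, in contrast to the other old libraries, whereas the rows of Nfat5, Slc5a3, Sgk1 and Aqp1 are red in all 5 old libraries.

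The wider pathways were read from 9 lists, of which 101 of 107 genes were in the table and 99 were tested. Of these, 31 were higher (31.3%) and 28 lower (28.3%), close to the 29.2% and 30.5% over all genes, and the median of their log2 fold changes was -0.12. Differences of other genes that are given without an error are log2 fold changes from the same limma fit.

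Genes of osmolyte synthesis and breakdown split. Of 13 tested, 5 were higher and 3 lower (median 0.08). Among those counted as higher was Bhmt, which consumes betaine, with means of 6.30 in young and 24.2 in old kidneys. It reached 10 normalized counts in 0 young libraries and 5 old ones, so it entered the test only through the group where it is high. Also higher were Pnpla6, which makes glycerophosphocholine (0.70), and Miox, which breaks down myo-inositol (0.65, from 10317 to 16281). Those lower were Impa2, an inositol monophosphatase (-0.66), Aldh7a1, which oxidizes betaine aldehyde (-0.37), and Cdo1, the entry enzyme of taurine synthesis (-0.25). Cdo1 changed direction with the length trend removed (0.04) and lost its call without young replicate 1, 3 or 4 or old replicate 2, 4 or 5, and Impa2 lost its call without young replicate 2. Pnpla6 was at 0.46 and Miox at 1.02 with the length trend removed. The lower calls fell from 3 to 0 with mitochondrial genes left out. Of 3 other osmolyte carriers tested, Slc5a11, the second myo-inositol carrier, was higher (0.65, SE 0.13, adjusted p = 0.000349), while Slc6a13 had -0.14 with an adjusted p of 0.397, and 0.08 with the length trend removed. Slc38a2, a neutral amino acid carrier named after its values were seen, had -0.24 with an adjusted p of 0.148, and was called lower with the length trend removed (-0.52, adjusted p = 0.00366) and without old replicate 3 (-0.34, adjusted p = 0.0330).

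The cell volume list had 8 of its 9 tested genes called, with 5 higher and 3 lower (median 0.38). The kinases Stk39 (0.77), Wnk1 (0.59) and Oxsr1 (0.56), which switch on salt uptake in shrunken cells, were higher. The 3 lower genes were Lrrc8b (-0.89), Lrrc8d (-0.78) and Lrrc8a (-0.59), subunits of the channel that releases osmolytes from swollen cells. With the length trend removed Wnk1 was at 0.02 with an adjusted p of 0.871, and the higher calls fell from 5 to 2.

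Of 8 hypertonic stress proteins, 2 were higher and 2 lower (median -0.38). Hspb1 (1.07), a small heat shock protein, and Ranbp3l (0.63) were higher. Cryab, a small heat shock protein abundant in the medulla, had 501, 621, 646 and 683 normalized counts in young and 166, 304, 735, 164 and 152 in old kidneys. Old replicate 3 exceeded all others, and the log2 fold change of -1.30 (SE 0.32, adjusted p = 0.00169) became -1.69 without it. In DESeq2 Cryab was not called. Hspa1b (means of 37.95 in young and 17.8 in old kidneys) is counted as lower, and reached 10 normalized counts in 4 young and 3 old libraries.

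Relatives and regulators of Nfat5 gave 5 higher and 4 lower of 17 (median -0.15). Map3k3 (MEKK3), a kinase upstream of p38, rose from 93.8 ± 14.2 (SD, n = 4) to 314 ± 13.0 (SD, n = 5) normalized counts (1.74, SE 0.12, adjusted p = 7.74e-10). Dhx9, an RNA helicase known to bind NFAT5, was higher (1.09), and Nfatc4, with means of 7.38 in young and 17.6 in old kidneys, is in the same count. Nfatc4 reached 10 normalized counts in 1 young library and 5 old ones, entered the test through the group where it is high, and had overlapping groups. Map2k3 (-1.04), which phosphorylates p38, the calcineurin subunit Ppp3r1 (-0.71) and Mapk14, which encodes p38 alpha (-0.53), were lower. The groups overlapped for Ppp3r1 and Mapk14, and the call of Mapk14 was lost with mitochondrial genes left out. The calcium-regulated relatives Nfatc1 (-0.21), Nfatc2 (-0.20) and Nfatc3 (-0.18) did not pass. With the length trend removed Nfatc3 was called lower (-0.44, adjusted p = 0.0309), while Nfatc1 (-0.34) and Nfatc2 (-0.53) were not called.

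Water channels other than Aqp1 did not move as a family. Aqp3, the basolateral water channel of principal cells, had 441, 540.2, 485 and 519 normalized counts in young and 164, 206, 220.1, 145 and 132 in old kidneys. All old libraries, old replicate 3 included, were below all young ones (-1.54, SE 0.14, adjusted p = 3.34e-08). Aqp7, of the straight proximal tubule, was lower too (-1.13, SE 0.15, adjusted p = 4.34e-06). Aqp4, the other basolateral channel of the collecting duct, had 23.8, 12.6, 38.2 and 24.4 in young and 57.8, 76.6, 112, 84.9 and 66.8 in old kidneys, with no overlap (1.70, SE 0.26, adjusted p = 1.76e-05). The vasopressin-regulated Aqp2 had 811, 746, 981 and 1376 in young and 334, 694, 2267, 468 and 469 in old kidneys. Old replicate 3 held the highest value of all and the other old libraries the lowest (-0.55, SE 0.36, adjusted p = 0.196). Without old replicate 3 it was called lower (-1.0004, adjusted p = 0.000204). Aqp6 (-0.07) and Aqp11 (-0.05) did not pass, although Aqp11 was called lower with the length trend removed (-0.29, adjusted p = 0.0127). Of the 18 genes tested on the list of water channels and vasopressin signaling, 6 were higher and 5 lower (median -0.06). The prostaglandin receptor Ptger1 (1.15) and the catalytic subunit of protein kinase A Prkacb (0.96) were higher (Ptger1 lost its call with 3 libraries left out), while the other catalytic subunit, Prkaca, was lower (-0.93).

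Of 9 genes of salt transport in the loop of Henle, 2 were higher and 3 lower (median -0.12), but 4 were higher and 3 lower both with mitochondrial genes left out and with the length trend removed. The cotransporter of the thick limb, Slc12a1, rose from 1969.7 to 3318 normalized counts (0.74, SE 0.11, adjusted p = 1.63e-05) and the sodium pump subunit Atp1b1 rose as well (0.57). Bsnd, a chloride channel partner, was among the lower genes (-1.04, SE 0.17, adjusted p = 2.63e-05).

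Around Sgk1, 5 of 15 genes were higher and 4 lower (median 0.17). Those higher included Rictor (1.22), a subunit of the mTORC2 complex that phosphorylates SGK1, Pdpk1 (0.92), a kinase that completes its activation, and the glucocorticoid receptor gene Nr3c1 (0.91). With the length trend removed they stayed called at 0.73, 0.57 and 0.61. Fkbp5, a glucocorticoid-induced gene, was lower (-1.56), from 249 ± 79.9 (SD, n = 4) to 82.7 ± 19.3 (SD, n = 5) normalized counts, as was Hsd11b2 (-0.87), which shields the mineralocorticoid receptor from glucocorticoids. The subunits of the epithelial sodium channel, a known target of SGK1, did not move together. Scnn1g (-0.94) and Scnn1b (-0.59) were lower and Scnn1a (0.80) higher, the last 2 being named after their values were seen. Of its relatives, Sgk3 was higher (0.67, SE 0.16, adjusted p = 0.00138), while Sgk2 had 0.17 with an adjusted p of 0.169, and was called higher with the length trend removed (0.28, adjusted p = 0.0261).

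Among glutathione peroxidases and aldose reductase relatives, 0 of 7 were higher and 4 lower (median -0.91), with 1 higher once the length trend was removed and 2 lower among genes with a mean of at least 100. Gpx4, which repairs lipid peroxides, had a mean of 505 ± 54.5 (SD, n = 4) in young and 27.1 ± 3.88 (SD, n = 5) in old kidneys (-4.18, SE 0.15, adjusted p = 1.23e-13). Gpx6 (-2.45) and Akr1b10 (-1.28) were also lower. Gpx3, the plasma form made by the proximal tubule (0.26, adjusted p = 0.280), Gpx1 (-0.24, adjusted p = 0.0922) and Gpx8 (-0.47, adjusted p = 0.0659) did not pass. With the length trend removed Gpx3 was called higher (0.55, adjusted p = 0.0182), Gpx1 was at 0.14 and Gpx8 at -0.08.

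**Figure D5:**
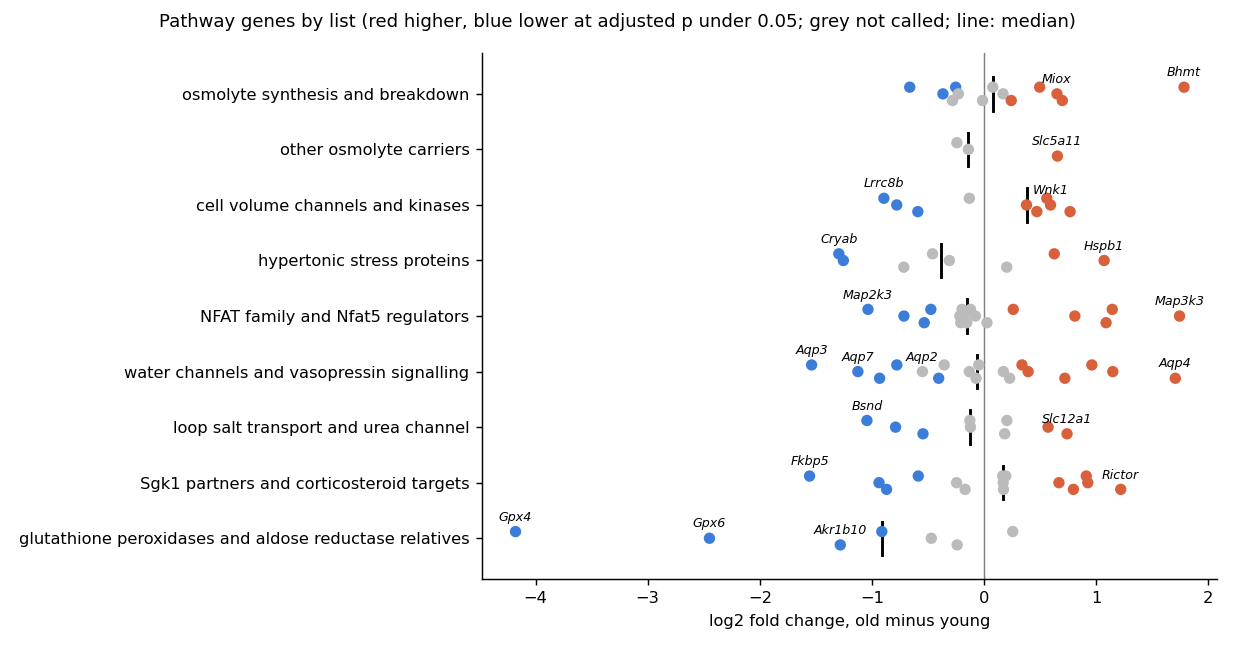
Log2 fold change, old minus young (horizontal axis), of each tested gene in the 9 pathway lists (rows), with red for higher, blue for lower and gray for not called, and a black line at the median of a list. Both colors occur in 7 of the lists, other osmolyte carriers hold no blue point, and the glutathione peroxidase and aldose reductase relatives hold no red one and reach -4.18 (Gpx4).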

How the data were processed

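Wild-type mouse kidney RNA of 2 ages was sequenced from transcript ends (9 libraries). According to the labels and methods, the authors checked reads with FastQC 0.11.7, aligned them to GRCm39 with TopHat2 2.0.10, Bowtie 1.0.0 and SAMtools 0.1.19, counted them by strand with HTSeq 0.6.1 and normalized them with DESeq2 (DESeq in the methods). The kit version differs between labels and methods. What the authors deposited is a count-like signal, reads over the size factor of each library. Of these values, 100% were whole reads within 0.01. The totals of 4486406 to 6355095 reads cover listed genes only, and intervals or floors (3 reads) would cover counting error only. The lowest gene mean was 4.49, so rarely read genes were removed earlier, by a rule not given in the sources used here.

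limma 3.58.1 (R 4.3.3; eBayes with trend) was run on log2(normalized count + 1), old against young, with genes of at least 10 normalized counts in at least 4 libraries, and Benjamini-Hochberg adjustment over all genes tested. Fold changes on this scale understate those of low genes. Of the 7 members, 6 passed the filter within each age group, and Akr1b3 passed over both together. The fit was tested on simulated data. The labels do not say that libraries are separate mice, so p-values measure the spread between these libraries. Alternatives were pseudocounts of 0.1 and 5, no filter, a mean of at least 100, TMM factors, table totals, mitochondrial genes left out (35.8 to 38.1% of reads in old, 27.0 to 29.7% in young), edgeR 4.0.16 and DESeq2 1.42.0 on whole reads, a transcript length trend removed by lowess, and each library left out. With mitochondrial genes left out, counts were scaled to the total of the remaining reads and not by the deposited size factors. Leaving out 3 libraries together and a wider lowess span were added after the data were seen. Positions and lengths are from GENCODE on GRCm38, not the build the authors used, matched by symbol.

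The members and lists were chosen with earlier results of these data known. The text names every member, up to 3 called genes in each direction per list with the largest change, relatives of members, and the 3 genes most like Nfat5, unless stated. No sequence of Akr1b3, Slc6a6 or Slc14a2 is reported here. Some genes that met this rule are not reported here.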

Additional observations from a re-analysis of the deposited data

Results flagged for a closer look

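Of 42 sets of values examined (7 members and 14 marker lists in each age group), 1 held a library far from the rest, where chance gives about 1 in 20. The summed markers of the inner medullary collecting duct, a list that includes the member Slc14a2, reached 9.77 on the log2 scale in old replicate 3, against 7.94 to 8.26 in the other 4 old libraries. The gap to the nearest library was 0.83 of the range of the group, above the critical value of Dixon’s test at the 95% level. The cause was not tested.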

How the results depend on the processing

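Of the 7 members, 4 were called, and between 3 and 6 under the 21 alternatives. The called pathway genes numbered 59, and 45 to 62 under the alternatives, and 46 of the 59 were called under every alternative that tested them. Leaving out 1 library at a time gave 4 to 6 members and 55 to 61 pathway genes, with 6 members called without old replicate 3. Nfat5 changed direction with the length trend removed (-0.11) and with the wider span (-0.14), and Slc5a3 kept its direction and lost its call (0.24 and 0.23). The cause was not tested. With mitochondrial genes left out and counts scaled to the total of the remaining reads, the calls went from 3704 higher and 3864 lower to 4472 higher and 3173 lower. The median log2 fold change of all genes went from -0.00 to 0.13, and the parts of the removal and of the scaling were not told apart. Against that median Aqp1 stood at 0.48, Sgk1 at 1.39, Slc5a3 at 0.94, Nfat5 at 0.68 and Slc6a6 at -0.05. Akr1b3 and Slc14a2 were not tested with a mean of at least 100. Depth limits Akr1b3, with 2 to 29 reads per library. The labels give no pairing between the ages, so no paired analysis was run. The titles carry no replicate numbers, and those used here follow the order of the samples.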

Other observations

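Markers of the straight proximal tubule, a segment that reaches the outer medulla, were among those that differed most by age. All 5 tested were called, 1 higher and 4 lower, with a median log2 fold change of -1.14 and summed levels of 5859 to 6523 normalized counts in young and 3149 to 4088 in old kidneys. Markers of intercalated cells gave 1 higher and 5 lower of 7 (median -0.76). Markers of the thick limb, whose salt transport feeds the medullary gradient, summed to 10593 to 11301 in young and 11857 to 16228 in old kidneys, with 2 higher and 1 lower of 6. Those of the distal convoluted tubule summed to 3231 to 4071 and 4774 to 5885, with 2 higher and 2 lower of 4. Of 8 proximal tubule markers 2 were higher and 5 lower, of 7 endothelial markers 4 were higher and 0 lower, of 6 fibroblast and mural markers 2 and 2, of 6 macrophage markers 2 and 1, and of 3 adipocyte markers 0 and 1. Of 7 principal cell markers 0 were higher and 3 lower, of 5 for the thin limb 0 and 3, of 5 for the inner medullary collecting duct 1 and 1, and of 2 urothelial markers 0 and 0. The lower thin limb markers include Fst, which entered the test only through the young group, where it is high. Immediate early genes, to which Sgk1 is often likened for its quick induction, gave 4 higher and 3 lower of 10 and summed to 1426 to 1684 in young and 1943 to 2345 in old kidneys. Whether these shifts bear on the members was not tested.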
